A study of Mus musculus with 48 samples.

Results

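Single mouse embryos at the 2-cell stage were compared by how much of their RNA came from the genes for cytosolic ribosomal proteins. The share was the percent of a library's counts in 75 genes whose symbols follow the naming of these proteins, 46 of the large and 29 of the small subunit. It was taken in the 24 deep libraries of 48, those with at least 1000000 counts and 12000 detected genes. The 8 libraries with the highest share formed the high-share set and the 8 with the lowest share the low-share set, and the 8 between them were left out of the comparison of sets. The sets were thus chosen from measured values, and the 75 genes are described without any test.

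All embryos were of the C57BL6 strain and were collected 26 to 28 hours after fertilization, and each was frozen alone in 1 well of a plate. One group was labelled WT and the other K49A, for an amino acid exchange in protamine 1, a protein that packs DNA in sperm. Nothing in the labels tells whether this exchange came through the father or the mother, whether embryos were littermates, or what "dot" stands for in the titles of K49A replicates 22, 23 and 24. Libraries were made with Smart-seq2, which copies whole polyadenylated transcripts. The high-share set held 4 WT embryos (replicates 19, 21, 22 and 24) and 4 K49A embryos (5, 8, 15 and 23). The low-share set held 3 WT embryos (15, 20 and 23) and 5 K49A embryos (4, 6, 10, 16 and 24). The odds ratio of K49A in the high-share set was 0.6 (2-sided Fisher's exact p = 1). Each embryo was counted as 1 replicate, so p-values measure the spread between embryos, which may include littermates.

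Ribosomal proteins assemble with ribosomal RNA into the small and large subunits that translate mRNA. Their mRNAs are short and often start with a run of pyrimidines, the 5′ terminal oligopyrimidine (5′ TOP) tract, through which growth signals set their translation. The mouse oocyte stores mRNA for the first divisions, and at the 2-cell stage most of this maternal mRNA is degraded while the embryo's own genome is switched on. Genes for making ribosomes and for RNA processing are among those switched on in this wave.

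The start sites show what these mRNAs have in common and where they differ. The lines give 15 bases before and 15 bases from the annotated start, from RefSeq promoters on GRCm38.p6. The tract, in capitals, was defined as a C and at least 4 more pyrimidines. It was marked from the C nearest the start, within 5 bases, that met this definition. Pyrimidines directly before that C stay in lower case, so the run is longer than marked in Rpl34, Fau, Rack1 and Eef1a1. Rpl34 encodes a large-subunit protein and Rps2 a small-subunit protein. Fau, which encodes ribosomal protein S30 fused to a ubiquitin-like protein, Rack1, a scaffold on the small subunit, and Eef1a1, an elongation factor, lie outside the 75 genes. Rplp0, the base of the ribosomal stalk, has no tract at its annotated start. Their positions are chr3:130730323-130730352 (minus strand), chr17:24720048-24720077, chr19:6057932-6057961, chr11:48800345-48800374, chr9:78481710-78481739 (minus strand) and chr5:115559452-115559481, in that order.
Rpl34: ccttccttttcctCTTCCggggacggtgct
Rps2: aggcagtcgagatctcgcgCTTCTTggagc
Fau: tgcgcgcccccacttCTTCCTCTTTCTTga
Rack1: cggaggccgctctttCTTTTTCTCCacagg
Eef1a1: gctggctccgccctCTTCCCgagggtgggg
Rplp0: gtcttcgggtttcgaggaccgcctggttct

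The tract was found at 27 of the 55 ribosomal protein genes that have a sequence (49.1%), against 21.2% of all 27025 genes with one. A match describes letters at an annotated start and not where transcription began in these embryos.

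The share ran from 0.159% to 5.09% of counts over the 24 deep libraries, a 32.1-fold range with a median of 0.808%. In the high-share set the lowest value was 1.09%, the median 1.57% and the highest 5.09%. In the low-share set the lowest value was 0.159%, the median 0.515% and the highest 0.605%. The values formed a gradient with no wide gap at either threshold. WT replicate 22 was just inside the high-share set at 1.09% and WT replicate 8 just outside at 1.02%. WT replicate 15 was just inside the low-share set at 0.605% and WT replicate 9 just outside at 0.691%. When the share was taken from the deposited TPM, which divide by transcript length, 8 of 8 high-share and 7 of 8 low-share embryos stayed in their set, and WT replicate 15 left the low-share set.

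**Figure D1:**
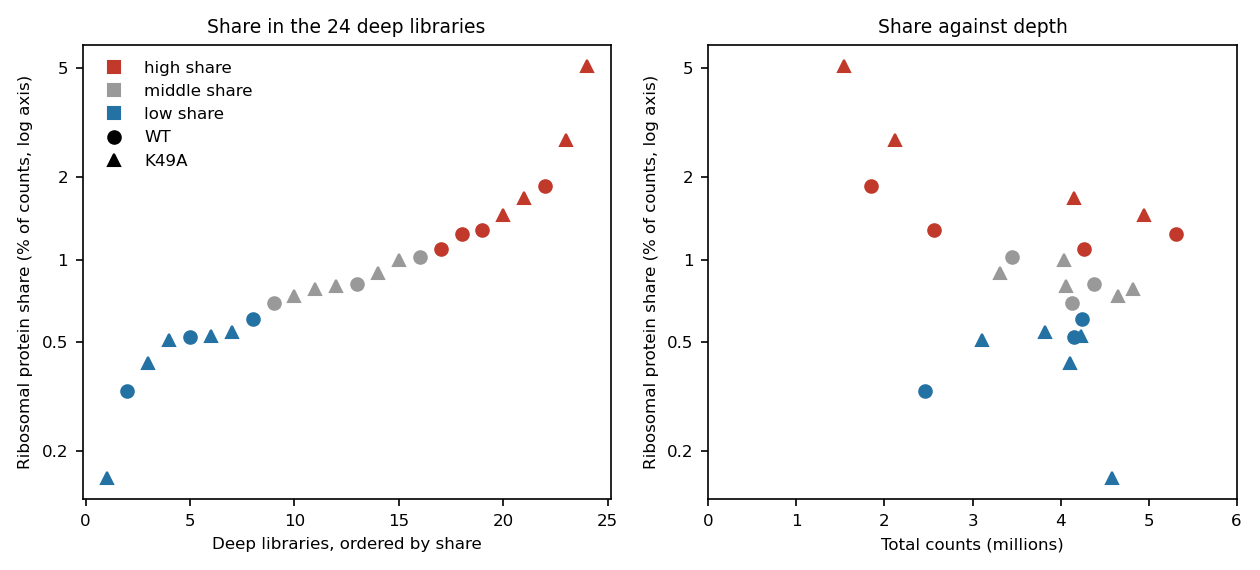
Left, the share of counts in 75 ribosomal protein genes (log axis) in each of the 24 deep libraries, ordered by share. Right, the same share against total counts. Colours mark the sets and symbols the labelled groups. The share climbs from 0.159% to 5.09%, and the 3 shallowest libraries hold the 3 highest shares.

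The highest shares lay in the shallowest libraries. Total counts ran from 1544253 to 5309505 in the high-share set and from 2464940 to 4585539 in the low-share set. The 3 shallowest of the 24 deep libraries, K49A replicate 8, WT replicate 19 and K49A replicate 15, had 1544253, 1842308 and 2124573 counts and shares of 5.09%, 1.87% and 2.74%. Over 24 libraries the share and total counts were related by Pearson's r of -0.58 (permutation p = 0.00526) but by Spearman's rho of only -0.20 (permutation p = 0.356), 2 relations computed in 1 family (Benjamini-Hochberg adjusted permutation p = 0.0105 and 0.356). Within WT r was -0.32 and within K49A it was -0.76. Without K49A replicate 8 and WT replicate 19, the libraries farthest from the median total, r was -0.27 (permutation p = 0.237), so the relation rests on those libraries. Without the 3 shallowest libraries it was 0.16. The 5 libraries with at least 100000 counts that were not deep, which enter no comparison, had shares from 0.821% to 13.1%. Because depth and share move together in these 3 embryos, the counts for the gene lists below are also given without them, as 5 high-share against 8 low-share embryos, an alternative added after the totals were seen.

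All 75 ribosomal protein genes had a higher median in the high-share set, as the choice of sets favours. In a library of 1 embryo, more mRNA of one kind and less of all others cannot be told apart, so every level is relative to the other counts. The ratio of medians was 3.85 in the median gene, 3.63 for the large and 4.11 for the small subunit. It ran from 1.17 for Rpl3 to 6.96 for Rps27. For 47 of the 75 the sets did not overlap, where 2.96% of all other genes tested did not overlap; the rule used these values, so nothing is read from the count. The genes moved together across embryos. Spearman's rho of a gene with the rest of the share over 24 libraries was 0.88 in the median and over 0.5 for 73 genes, as a description, since the values of a library share its depth. Rpl3 stood lowest at 0.14. Its median was 147 counts per 1000000 (CPM) in the high-share set and 126 in the low-share set.

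Rplp1, a protein of the ribosomal stalk, had 73.8 CPM in the lowest, 186 in the median and 995 in the highest high-share embryo. In the low-share embryos these values were 21.6, 48.4 and 75.3 CPM. The sets overlapped slightly, with 6 of 8 high-share embryos above every low-share embryo. Rpl34 had 12.5, 51.5 and 238 CPM in the high-share set against 8.91, 19.9 and 29.01 CPM in the low-share set, and 5 of 8 high-share embryos were above every low-share embryo.

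Rplp0, Rpl4 and Rps2 held the largest parts of the share, and Rpl38, Rps21 and Rpl36 the smallest. Rplp0 alone took 15.2% of the counts of the 75 genes and the leading 10 genes 40.1%. Rplp0 had a median of 1955 CPM in the high-share and 709 in the low-share set, Rpl4 had 601 and 260, and Rps2 had 427 and 154. Rpl38 had medians of 26.3 and 5.26 CPM, Rps21 of 26.0 and 6.98, and Rpl36 of 10.1 and 3.87. Per length the order differs. On the TPM scale the mean level over 24 libraries was 1500.2 for Rpl41 and 1497 for Rplp0, against 444 for Rps2, 322 for Rpl4 and 77.1 for Rpl36. The large subunit's part of the share was 60.4% ± 4.5 (SD, n = 8) in the high-share set and 66.3% ± 4.0 (SD, n = 8) in the low-share set.

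**Figure D2:**
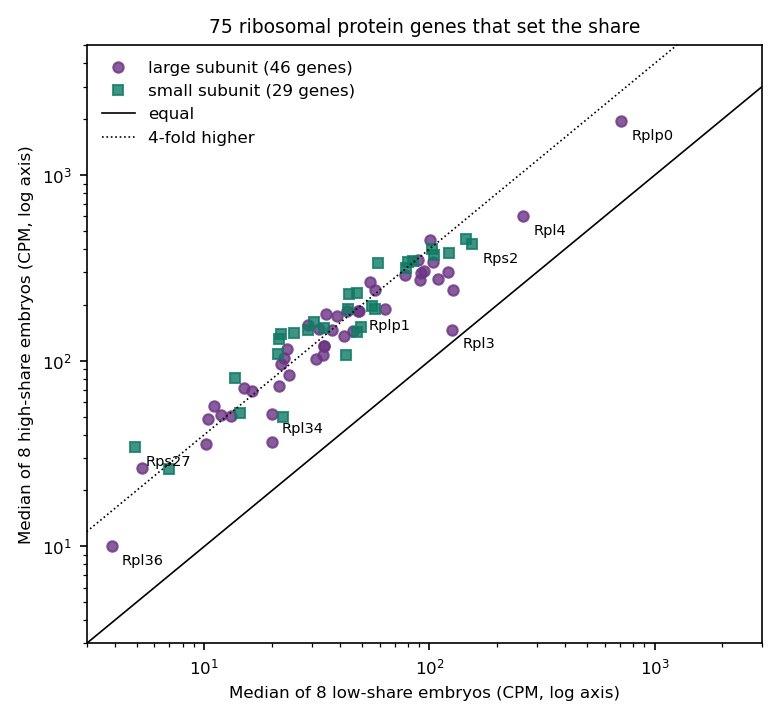
Median CPM of each of 75 ribosomal protein genes in the 8 low-share (x axis) and the 8 high-share embryos (y axis), both log axes, with lines at equal level and at 4-fold. All genes lie above the line of equal level, Rpl3 closest to it at 1.17-fold and Rps27 farthest at 6.96-fold.

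Beyond these 75 genes, 22 of 74 ribosome biogenesis genes, 18 of 54 splicing factor genes and 11 of 33 proteasome genes were called higher in high-share embryos, and 17 of 79 stored oocyte mRNAs were called lower. Of 13801 genes tested, 973 were higher (7.05%) and 815 lower (5.91%) in high-share embryos, together 13% of genes (edgeR's quasi-likelihood test with genotype as covariate, adjusted p under 0.05). The median log2 difference of all genes was 0.13. Without the 3 shallowest libraries, 1142 of 14071 genes were higher (8.12%) and 875 lower (6.22%), and 1114 of the 1788 calls were called again, all in the same direction. With plate column in the model, 293 genes were higher and 273 lower, and 529 of the 1788 calls were called again in the same direction. Of the 93 genes chosen by the naming rule, 36 lost their call. The 93 include genes that had no call to lose, such as Sdhb and mt-Nd3. The same contrast did not detectably differ between WT and K49A in any gene by the interaction term of the same model (0 calls, 0% of genes, with 619 genes at an unadjusted p under 0.05). 

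**Figure D3:**
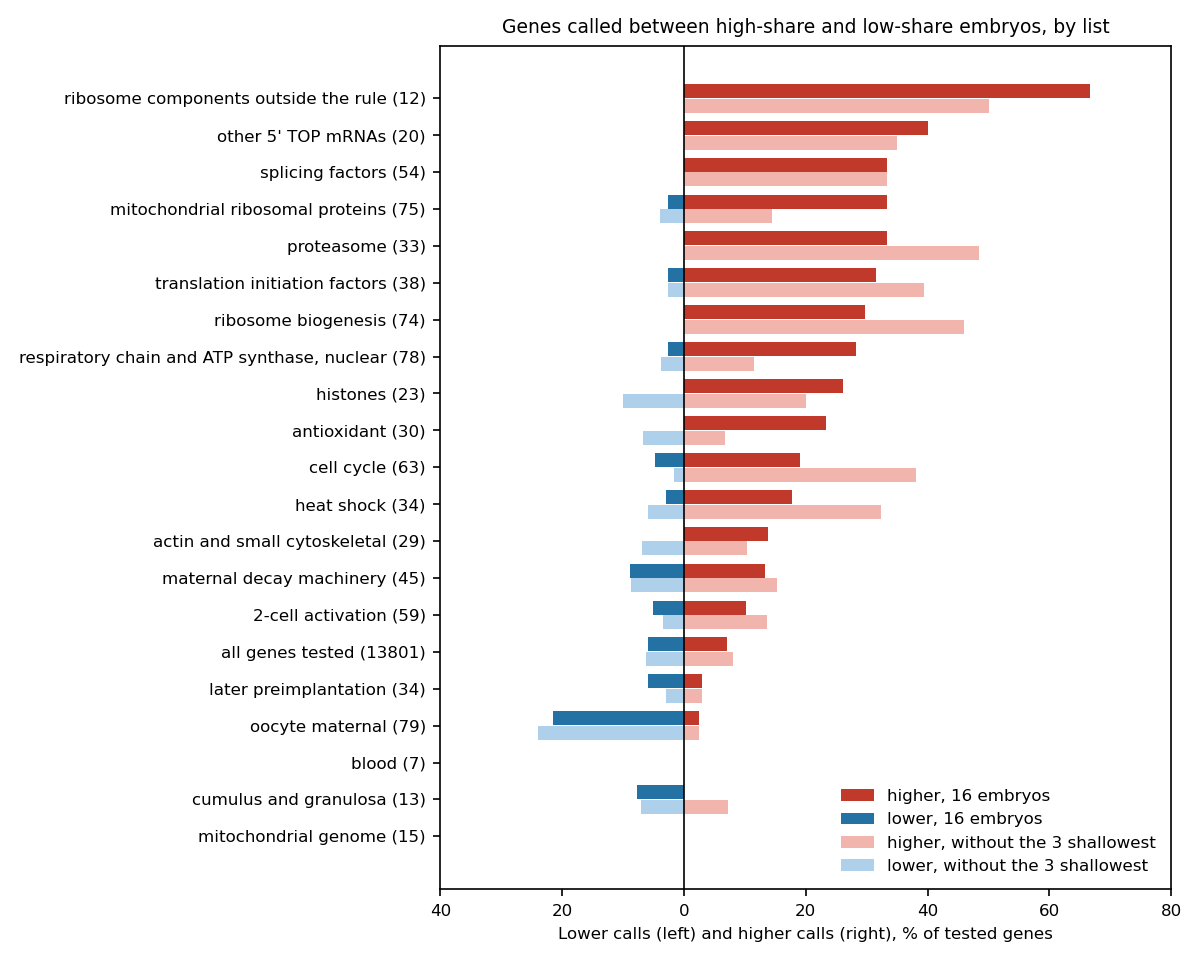
Percent of tested genes called higher (right) and lower (left) in high-share embryos for each gene list, with the number tested in 16 embryos in brackets. Dark bars use all 16 embryos and light bars leave out the 3 shallowest libraries. Higher calls reach 29.7% for ribosome biogenesis and 45.9% without the shallowest libraries, and lower calls reach 21.5% for stored oocyte mRNAs, against 7.05% and 5.91% of all genes.

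Of 12 tested genes for ribosome components outside the naming of these proteins, 8 were higher and 0 lower, with a median log2 difference of 2.42 against 0.13 for all genes. Leaving out the 3 shallowest libraries gave 6 higher and 0 lower (median 1.64). Rpsa, a small-subunit protein, had 146 CPM in the lowest, 357 in the median and 655 in the highest high-share embryo, against 2.54, 78.3 and 105 CPM in low-share embryos, without overlap (2.40 ± 0.51 SE, adjusted p = 0.0084). Rack1 had 30.4, 48.7 and 114 CPM against 10.2, 15.7 and 24.8 CPM. Its log2 difference was 1.69 ± 0.35 SE (adjusted p = 0.00745) and 1.72 without the 3 shallowest libraries, while that of Fau went from 2.81 to 1.13, no longer a call (adjusted p = 0.0553). Among 30 pseudogenes of ribosomal proteins the median was 2.42. They share sequence, and so reads, with the 75 genes. They stayed in the fit, and 15 of them (50%, against 7.05% of all genes) are among the 973 higher calls. Because of the shared reads, nothing is read from these calls.

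Ribosome biogenesis genes, which process ribosomal RNA and assemble the subunits in the nucleolus, had 22 of 74 tested members higher, 0 lower and 52 not called (median 1.34). Without the 3 shallowest libraries this became 34 of 74 (median 1.63), and without WT replicate 20 or without K49A replicate 10, both of the low-share set, 14 of 74. Fbl, the methyltransferase of the box C/D small nucleolar complexes, had 205 CPM in the lowest, 275 in the median and 401 in the highest high-share embryo. In low-share embryos it had 15.8, 55.0 and 98.5 CPM, and the middle embryos had a median of 136 CPM. The Fbl values did not overlap, and the log2 difference was 2.36 ± 0.34 SE (adjusted p = 0.00324) and 2.18 without the 3 shallowest libraries. Imp3, a component of the small-subunit processome, differed by 2.71 ± 0.45 SE (adjusted p = 0.00454), and Emg1, an rRNA methyltransferase, by 2.41 ± 0.43 SE (adjusted p = 0.00471). Polr1c, a subunit shared by RNA polymerases I and III, differed by 2.45 and Ddx21, a nucleolar helicase, by 2.03.

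Of 38 initiation factor genes, 12 were higher, 1 was lower and 25 were not called, with a median of 1.00. These were 15 and 1 without the 3 shallowest libraries (median 0.90), and 7 were higher without WT replicate 20. Eif6, which binds the large subunit and keeps it from joining too early, had 568, 915 and 1861 CPM in high-share embryos against 89.3, 209 and 296 CPM in low-share embryos. The sets were far apart (log2 difference 2.28 ± 0.34 SE, adjusted p = 0.00413). Eif3k and Eif3c, subunits of the initiation complex eIF3, differed by 2.11 and 2.34. The 1 lower gene was Eif4e1b, the oocyte form of the cap-binding protein, at -2.50 (adjusted p = 0.012). Among 20 other mRNAs known for a 5′ TOP tract, 8 were higher and 0 lower (median 1.36), and 5 were higher without K49A replicate 8. These were Eif3h, Eif3f, Eef1d, Naca and Npm1 among coding genes, and the host transcripts of small nucleolar RNAs Gas5, Snhg1 and Snhg8. Npm1, a nucleolar chaperone, had 1121, 1684 and 3420 CPM against 398, 600 and 977 CPM. Of the 20, 7 were higher and 0 lower without the 3 shallowest libraries (median 0.71). Gas5, Snhg1, Snhg8 and Naca were then no longer calls, with log2 differences of 0.56, 1.18, 0.46 and 0.31, and Pabpc1, Eef2 and Eif3e were called at 2.02, 1.18 and 2.13.

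The tract was as common among called genes as in the background of coding genes, by share alone. It was present at 22.3% of the coding genes called higher, 25.7% of those called lower and 23.1% of those not called. Coding genes with the tract were called higher in 6.80% and those without it in 7.15%. Imp3 (chr9:56937485-56937514) is shown as an example of a clearly higher gene without the tract as defined here. Its annotated start lies in a run of pyrimidines that is too short for the definition.
Imp3: cctttctcccgcattctccatcatggtgcg

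Of 54 splicing factor genes, 18 were higher, 0 lower and 36 not called (median 1.13), and 18 were higher without the 3 shallowest libraries. Snrpb, a core protein of the spliceosomal snRNPs, had 107, 131 and 361 CPM in high-share embryos against 11.6, 39.4 and 70.4 CPM in low-share embryos, with no overlap (2.18 ± 0.39 SE, adjusted p = 0.00471). Snrpd2, of the same core, differed by 3.16 and Snrnp70, the U1-specific protein, by 1.87. Of 33 proteasome genes, 11 were higher, 0 lower and 22 not called (median 1.15), and 16 without the 3 shallowest libraries. Psmb1, a subunit of the catalytic core, had 121, 176 and 752 CPM against 4.56, 30.6 and 77.1 CPM. The log2 difference of Psmb1 was 2.59 ± 0.49 SE (adjusted p = 0.00572), and that of Psma6, another core subunit, was 2.15.

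Beside the 3 lists that follow, 7.05% of all genes were higher and 5.91% lower, and 8.12% and 6.22% without the 3 shallowest libraries. Of 34 heat shock and chaperonin genes 6 were higher and 1 lower (median 0.54), and 11 were higher and 2 lower without the 3 shallowest libraries. Hsp90ab1, a cytosolic chaperone, differed by 1.84 ± 0.33 SE (adjusted p = 0.00471) and Tcp1, a chaperonin subunit, by 2.06. The lower gene was Hsf1, the heat shock transcription factor, at -1.47 (adjusted p = 0.0128). Of 63 cell cycle genes 12 were higher and 3 lower (median 0.78), and 24 were higher and 1 lower without the 3 shallowest libraries, while leaving out either WT replicate 20 or K49A replicate 5 gave 7 higher genes. The lower calls fell to 0 without K49A replicate 5 or without K49A replicate 16. Espl1, the separase that cuts cohesin, had 63.9, 88.4 and 129 CPM against 14.3, 34.2 and 47.4 CPM, without overlap (1.40 ± 0.31 SE, adjusted p = 0.00901). Ube2c and Gins2 differed by 2.62 and 2.24. The 3 lower genes were Cdc25b, Ccnd3 and Mad2l1, at -1.20, -1.48 and -1.54. Of 23 tested histone genes of the list 6 were higher and 0 lower, among them the variant genes H2afz, H2afv and H2afj at 2.19, 2.47 and 2.82 (median of the list 0.92). The list does not hold Hist2h3c1, a histone gene named below among the largest lower calls. Of the 20 histone genes that could be tested without the 3 shallowest libraries, 4 were higher and 2 lower, and the median turned to -0.51. H2afz, H2afv and H2afj were still higher, at 1.34, 1.43 and 2.09, and the 2 lower genes were the linker histone genes H1f0 and H1fx.

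Of 79 tested genes known for stored oocyte mRNA, 17 were lower, 2 higher and 60 not called, with a median of -0.71, and 25 of the 79 differences were positive. Without the 3 shallowest libraries 19 were lower and 2 higher, with a median of -0.84, and 10 were lower without WT replicate 20. Btg4, the adaptor that brings the CCR4-NOT deadenylase to maternal mRNA, had 304 CPM in the lowest, 1426 in the median and 3512 in the highest high-share embryo. In low-share embryos it had 3031, 4909 and 8864 CPM, and in the middle embryos a median of 2885 CPM. The sets met only at the edge, and the log2 difference was -2.02 ± 0.39 SE (adjusted p = 0.00588). Bmp15, an oocyte growth factor, had 129, 417 and 556 CPM against 706, 1057 and 1458 CPM, without overlap (-1.53 ± 0.31 SE, adjusted p = 0.00745). Gdf9, its partner, differed by -1.29, Nobox, an oocyte transcription factor, by -1.57 and Pabpc1l, the embryonic poly(A)-binding protein, by -1.38. The 2 higher genes were Dppa5a at 2.86 and Zp3 at 1.74. Zp3 and Zp2, both of the zona pellucida, thus had opposite signs, with Zp2 at -1.05 (adjusted p = 0.0461).

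**Figure D4:**
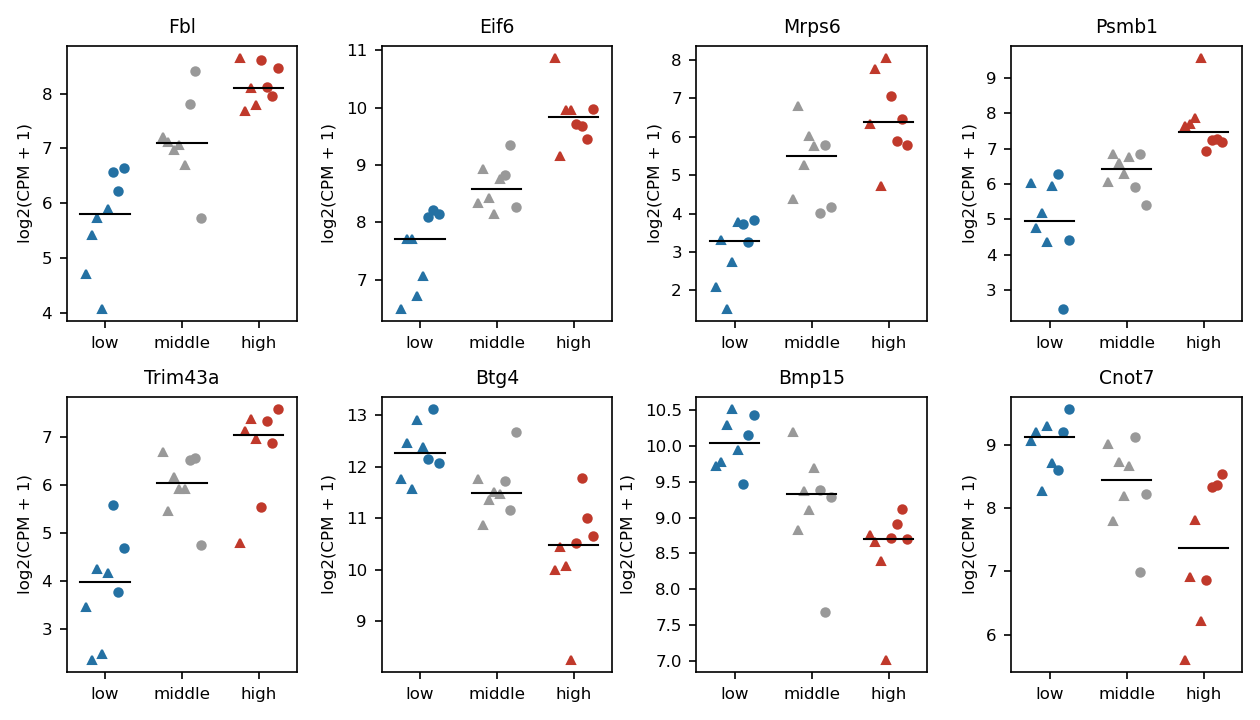
log2(CPM + 1) of 8 genes in each low-share, middle and high-share embryo, 8 embryos a set, with circles for WT, triangles for K49A and a line at the median. The upper row and Trim43a are higher in the high-share set, the other genes are lower, and the middle embryos have medians between the sets.

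Genes of the machinery that degrades maternal mRNA were called at shares not far from those of all genes. Of 45 tested genes, 6 were higher (13.3%) and 4 lower (8.89%), against 7.05% and 5.91% of all genes, with a median of 0.14 beside the 0.13 of all genes. Of 46 tested without the 3 shallowest libraries, 7 were higher and 4 lower. Without K49A replicate 10 or K49A replicate 6 the higher calls were 2 and 3, and without WT replicate 20 the lower calls were 2. The 4 lower genes were Btg4, the deadenylase genes Cnot7 and Cnot6l, and the decapping gene Dcp1a. Cnot7 had 47.6, 172 and 370 CPM in high-share embryos against 307, 558 and 754 CPM in low-share embryos, a narrow overlap (log2 difference -1.65 ± 0.40 SE, adjusted p = 0.0132). Cnot6l and Dcp1a were at -1.24 and -1.05. The 6 higher genes were Exosc2, Exosc3, Exosc5, Exosc7 and Exosc10, which encode parts of the RNA exosome, a 3′ to 5′ exonuclease complex, and Xrn1, the main cytoplasmic 5′ to 3′ exonuclease, at 1.36.

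Genes switched on at the 2-cell stage were also called at shares near those of all genes, but their median difference was higher. Of 59 tested genes, 6 were higher (10.2%) and 3 lower (5.08%), against 7.05% and 5.91% of all genes. Their median was 0.72 beside the 0.13 of all genes, with 45 positive and 14 negative differences. Without the 3 shallowest libraries the counts were 8 (13.6%) and 2 (3.39%), with a median of 0.90. All genes then had 8.12% higher, 6.22% lower and a median of -0.02. Without WT replicate 20 the counts were 3 and 1. Trim43a, one of a family of near-identical genes expressed in early embryos, had 26.7, 131 and 191 CPM against 4.09, 14.8 and 46.9 CPM. The log2 difference of Trim43a was 2.85 ± 0.50 SE (adjusted p = 0.00471) with some overlap, those of its copies Trim43b and Trim43c were 2.38 and 1.90, and reads of the copies may be divided between them. The other higher genes were Kdm5b, Tcstv3 and Dppa2, at 1.64, 1.78 and 1.19. The 3 lower genes were Obox1, Obox5 and Obox2, homeobox genes of the maternally stored branch of their family, at -1.84, -1.59 and -1.49, and their near-identical copies make the single values uncertain. The 6 marker genes of the 2-cell stage, among them Zscan4c, Zscan4d and Zfp352, summed to 88.0, 827 and 1504 CPM in the high-share set and to 83.2, 554 and 922 CPM in the low-share set. The 6 oocyte markers summed to 1052, 1647 and 3755 CPM against 2015, 2545 and 2995 CPM. Both kinds of marker were present in every embryo, and both sums overlapped between sets.

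Among nuclear genes of mitochondria, fewer were called higher without the 3 shallowest libraries. Of 75 tested genes for mitochondrial ribosomal proteins, 25 were higher, 2 lower and 48 not called (median 1.10). Without these libraries 11 of 76 were higher and 3 lower (median 0.63). Mrps6 had 25.4, 83.3 and 264 CPM against 1.86, 8.75 and 13.2 CPM, without overlap (3.74 ± 0.54 SE, adjusted p = 0.00324), and 3.41 without them. Mrpl51 and Mrpl4 differed by 2.46 and 1.90. The 2 lower genes were Mrpl3 and Mrpl10. Of 78 tested nuclear genes of the respiratory chain and ATP synthase, 22 were higher and 2 lower (median 1.42), against 9 and 3 (median 0.62) without the 3 shallowest libraries. Complex I had 8 of 36 higher with all embryos (22.2%) and 1 of 36 without the 3 shallowest libraries (2.78%), against 7.05% and 8.12% of all genes. It had 3, 4 and 5 higher when K49A replicates 8, 16 and 24 were each left out alone. Complex III had 3 of 9 in both fits, Uqcrb, Uqcrq and Uqcr10 with all embryos and Uqcrfs1, Uqcrc1 and Uqcrc2 without them, and 0 and 1 without K49A replicate 8 and without K49A replicate 16 alone, complex IV 5 and 2 of 12, and ATP synthase 6 and 3 of 17. Cox4i1 had 67.4, 124 and 485 CPM against 5.92, 25.2 and 53.4 CPM, without overlap, and its log2 difference went from 2.37 ± 0.43 SE (adjusted p = 0.00479) to 1.89 (adjusted p = 0.011). Complex II had 0 of 4 higher, and Sdha, its catalytic subunit, was lower at -1.75 ± 0.44 SE (adjusted p = 0.0156). The 15 genes of the mitochondrial genome had 0 calls by edgeR, with or without these libraries, and their share of other counts was 7.48% ± 2.92 (SD, n = 8) in the high-share and 7.37% ± 3.35 (SD, n = 8) in the low-share set (exact permutation, adjusted p = 0.96).

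Of 30 antioxidant genes 7 were higher and 0 lower (median 0.97), and 2 and 2 without these libraries (median -0.07). The higher calls were 23.3% of the list and 6.67% without these libraries, against 7.05% and 8.12% of all genes. Lower calls were 6.67% without these libraries, against 6.22% of all genes. Gpx1 went from 2.05 (adjusted p = 0.011) to 0.71 (adjusted p = 0.0719). Of 29 actin and small cytoskeletal genes 4 were higher and 0 lower, and 3 and 2 without these libraries, with medians of 0.31 and 0.28. Without these libraries 10.3% were higher and 6.90% lower, not far from the 8.12% and 6.22% of all genes. The 4 called with all embryos, Dynll1, Dynlrb1, Tmsb10 and Arpc3, were not called without these libraries, and the 3 higher genes were then Tuba3b, Tubb5 and Tubb4b. Tmsb10, an actin-binding peptide, went from 2.00 to 0.14, and its call was also lost in 10 of 16 fits with 1 library left out. The count of higher antioxidant genes was 3 when K49A replicate 4, 6, 8, 10 or 16 was left out alone and 4 for WT replicates 19 and 20, and the cytoskeletal count was 2 for 8 of the 16 libraries.

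Beside the 3 lists that follow, 7.05% of all genes were higher and 5.91% lower, and 8.12% and 6.22% without the 3 shallowest libraries. Of 13 tested cumulus and granulosa genes 0 were higher and 1, Mro, was lower at -2.04. Of 14 tested without the 3 shallowest libraries Nr5a2 was higher and Mro lower. The 8 defining markers of these cells summed to 0.682, 15.4 and 96.4 CPM in high-share and 6.05, 31.0 and 153 CPM in low-share embryos. Of 7 tested blood genes 0 were called by edgeR, or by it without the 3 shallowest libraries, and Hbb-bs, Hbb-bt and Ptprc were at 0 in all 16 embryos. The 7 defining blood markers summed to 12.6, 21.2 and 312 CPM against 5.46, 33.7 and 153 CPM. All 19 genes of the blood list summed to 23.7, 46.8 and 343 CPM against 5.46, 38.7 and 174 CPM, with the higher median in the other set. All 36 genes of the cumulus and granulosa list summed to 73.6, 218 and 507 CPM against 86.5, 233 and 357 CPM. Of 34 genes of later preimplantation stages 1 was higher, Dppa5a, and 2 were lower, Aqp3 and Pdgfra, calls that were lost in 6 of 16 and in 10 of 12 fits with 1 library left out. Pdgfra was too low to test in the other 4 fits, and without the 3 shallowest libraries Dppa5a was still higher and 1 of the 34 genes, Pou5f1, was lower.

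The 12 genes named for the largest higher calls were Fthl17c, Blnk, Znrd1, Bex1, Mrps6, Mt1, Zmat5, Rab10os, Cst7, Cystm1, Chchd2 and H2-Q7, a gene with close paralogues, with log2 differences from 5.11 down to 3.38. Mt1, a metal-binding metallothionein, had 139, 499 and 3172 CPM against 6.08, 57.6 and 162 CPM with a narrow overlap (3.68 ± 0.71 SE, adjusted p = 0.00588). Chchd2, a small mitochondrial protein, had 214, 467 and 2498 CPM against 4.23, 68.7 and 138 CPM, without overlap (3.48 ± 0.62 SE, adjusted p = 0.00471). Znrd1, a subunit of RNA polymerase I, differed by 4.29, but by 2.46 without the 3 shallowest libraries, which is no call (adjusted p = 0.0605). Blnk and Bex1 went from 4.39 and 3.85 to 0.92 and 0.82, and Fthl17c was then too low to test. With 1 library left out at a time, the call was lost in 7 of 16 fits for Blnk, whose difference fell as low as 2.68, in 5 of 16 for Bex1 and in 4 of the 11 fits in which Fthl17c could be tested. The other 8 were called in both fits. Rab10os is annotated antisense to Rab10, and without stated strand its reads cannot be told from those of its partner.

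The 12 genes named for the largest lower calls were Hist2h3c1, Ccn1, Ube2d1, Egfl6, Diras2, Dph6, Psg17, Fam217a, Aplf, Tbpl2, Fam110c and AU022751, with log2 differences from -4.16 to -2.82. Tbpl2, the oocyte paralogue of the TATA-binding protein, had 0, 4.37 and 9.43 CPM in high-share embryos against 6.25, 19.8 and 70.9 CPM in low-share embryos, with a narrow overlap (-2.83 ± 0.56 SE, adjusted p = 0.00669). Dph6, an enzyme of diphthamide synthesis on elongation factor 2, had 0, 15.3 and 46.0 CPM against 54.0, 113 and 320 CPM, without overlap (-2.99 ± 0.68 SE, adjusted p = 0.0106). Ube2d1, a ubiquitin-conjugating enzyme, and Egfl6, a secreted protein, also did not overlap, at -3.52 and -3.48. Ccn1 and AU022751 were not called without the 3 shallowest libraries (adjusted p = 0.114 and 0.0901), and the call of Ccn1 was lost in 9 of 16 and that of AU022751 in 2 of 16 fits with 1 library left out. Hist2h3c1 was lower at -4.16 while its near-identical neighbour Hist2h3c2, named after its values were seen, was higher at 5.55, and reads of such copies may be split between them, so both values are uncertain.

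By share of counts, 1 maternal gene stood out, and it was named after its values were seen. Zbed3, which encodes a zinc finger protein of the subcortical maternal complex, took 4.86% ± 2.61 (SD, n = 8) of other counts in low-share embryos and 1.36% ± 0.65 (SD, n = 8) in high-share embryos. Its log2 difference was -2.02 ± 0.43 SE (adjusted p = 0.0083). Tcl1 and Spin1 took 1.31% each in low-share and 0.567% and 0.57% in high-share embryos. Against this, the short oocyte mRNAs Omt2a and Omt2b, also named after their values were seen, stood out in the 3 shallowest libraries. Omt2b took 2.45% to 3.31% of other counts in these, 0.242% to 0.666% in the other 5 high-share embryos and 0.26% to 0.784% in low-share embryos. Neither was called (adjusted p = 0.134 and 0.143).

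The sets also differed in the types of transcript that made up the other counts. Counts in processed pseudogenes were 0.9993% ± 0.092 (SD, n = 8) in the high-share set and 0.602% ± 0.169 (SD, n = 8) in the low-share set (exact permutation test, 2-sided, p adjusted over 7 values per embryo = 0.00163). Pseudogenes of ribosomal proteins, which share reads with the 75 genes, were 0.0704% and 0.0175%, and without them the values were 0.929% and 0.585% (exact permutation, adjusted p = 0.00272). For all processed pseudogenes the difference was 0.38 percentage points without the 3 shallowest libraries (exact permutation, adjusted p = 0.0109). Long non-coding genes took 5.32% ± 0.95 (SD, n = 8) in high-share and 8.09% ± 1.34 (SD, n = 8) in low-share embryos (exact permutation, adjusted p = 0.00163). This difference was -2.76 percentage points, and -2.55 without the 3 shallowest libraries (exact permutation, adjusted p = 0.0163). It was -1.20 within WT and -3.95 within K49A. The genes Gm36958, C86187 and Gm1965 carried the largest parts of it, from 0.977% to 0.414%, from 0.922% to 0.497% and from 0.702% to 0.322% of other counts in low-share and high-share embryos. The test per gene gave another balance. Of 1047 long non-coding genes 46 were higher (4.39%) and 44 lower (4.20%). Without the 3 shallowest libraries 1.54% were higher and 6.48% lower. Of 406 processed pseudogenes, those of ribosomal proteins included, 11.1% were higher and 3.45% lower. Without these libraries 3.93% were higher and 3.14% lower. All genes tested had 7.05% higher and 5.91% lower, and 8.12% and 6.22% without these libraries.

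Transcript length followed the 3 shallowest libraries. Counts in transcripts under 1000 nt were 43.5% ± 8.1 (SD, n = 8) in the high-share and 35.4% ± 1.6 (SD, n = 8) in the low-share set (exact permutation, adjusted p = 0.0029). The 3 shallowest libraries held 51.0% to 56.1% of counts in such transcripts, the other 5 high-share embryos 36.7% to 39.0% and the low-share embryos 32.6% to 37.5%. Without the 3 shallowest libraries the difference was 2.37 percentage points (exact permutation, adjusted p = 0.029). The mean transcript length weighted by counts was 1188 nt ± 119 (SD, n = 8) against 1305 nt ± 13 (SD, n = 8) (exact permutation, adjusted p = 0.00816), and the difference of -117 nt became -34.3 nt without them (exact permutation, adjusted p = 0.0816). Among coding genes under 500 nt, 18.2% were called higher, against 10.4% from 500 nt to below 1000 nt and 4.36% from 3000 nt. Without the 3 shallowest libraries these were 11.9%, 11.4% and 6.18%. The Spearman correlation of log2 difference and length across all genes was -0.18 with all embryos and -0.07 without these libraries; genes are not independent replicates, so no p is given. Of the 75 ribosomal protein genes 72 have a median transcript under 1000 nt. The part of transcript length and depth in the differences between sets was not tested.

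**Figure D5:**
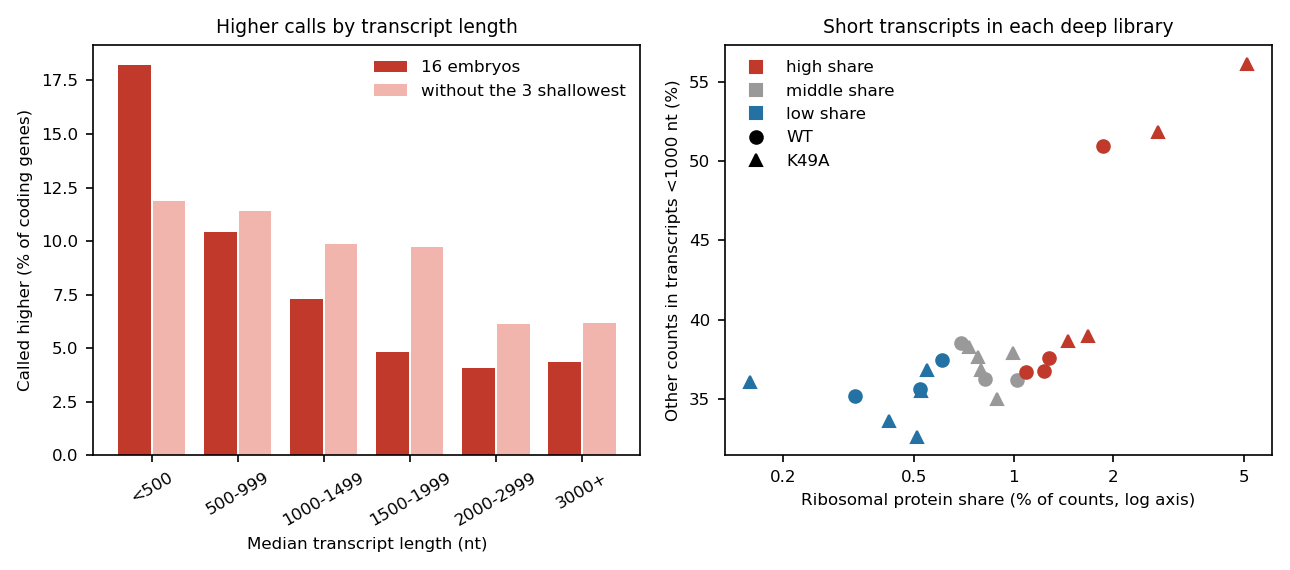
Left, percent of coding genes called higher in high-share embryos by median transcript length, with all 16 embryos (dark) and without the 3 shallowest libraries (light). Right, percent of other counts in transcripts under 1000 nt against the ribosomal protein share (log axis) in each of 24 deep libraries. The 3 shallowest libraries stand apart at 51.0% to 56.1%, and higher calls reach 18.2% below 500 nt with them and 11.9% without them.

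Gene number did not separate the sets beyond the threshold in thinned counts of all embryos of both sets. With every library thinned to 1544253 counts, high-share embryos had 15299 ± 646 (SD, n = 8) detected genes and low-share embryos 16353 ± 1160 (SD, n = 8) (exact permutation, p = 0.0426, adjusted p = 0.0596). Unthinned, these were 16226 and 17839. Total counts were 3345190 ± 1490070 and 3840020 ± 704010 (SD, n = 8 each; exact permutation, adjusted p = 0.47). Plate columns 1 to 6 held 1, 1, 2, 1, 2 and 1 high-share and 0, 1, 1, 3, 1 and 2 low-share embryos. All WT libraries lay in plate rows 1 to 4 and all K49A libraries in rows 5 to 8, so genotype and plate row cannot be told apart.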

How the data were processed

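Polyadenylated RNA of single embryos was measured with Smart-seq2. STAR 2.7.8a, RSEM 1.3.3, FastQC 0.11.8 and cutadapt 2.3, and the builds mm10 and GRCm38, are named in the submitters' processing notes. The deposited table of the authors holds expected counts per gene, estimated by read assignment; all were whole numbers, and rounding before use changed none. The deposited TPM of the authors were used for an alternative share and for levels per length. Whether counting used strand is not stated in the labels or notes. RSEM splits reads between genes of near-identical sequence, which makes values of gene families and of pseudogene copies uncertain. The 5 transgene entries held 0 counts and were left out.

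The 75 ribosomal protein genes were removed from the library sizes and from the fit. Genes were kept with filterByExpr and scaled with TMM, and CPM of other genes are counts per 1000000 after this scaling, while those of ribosomal protein genes use all counts. The 2 sets of 8 were tested by edgeR 4.0.16 (quasi-likelihood, R 4.3.3) with genotype as covariate and Benjamini-Hochberg adjustment at 0.05. Standard errors are the log2 difference over the square root of its F statistic. Values per embryo were compared by exact permutation of 8 against 8, 2-sided, with a smallest possible p of 0.000155, and correlations by 100000 resamples. Lengths and types come from GENCODE M21 on GRCm38, which lists 55154 of 55421 genes. A transcript type's percent is of counts outside the ribosomal protein genes. Depth is given by total counts, from 1544253 to 5309505 in the deep libraries.

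Named genes comprise the 12 largest called differences in either direction with a standard symbol and at least 10 CPM, the 3 members of lowest p in every list, and Rplp1, Rpl34 and the ribosomal protein genes with the 3 highest and 3 lowest shares. Other called members were named to account for small counts. Of the genes under this rule, 1 is not reported here. The embryos, gene lists and tests were chosen with earlier results of these data known. Lists were described by counts and medians with no set test. The model was tested on simulated data with the same depths and 1 common spread for all genes. It called 1 of 50 genes changed 2-fold, 15 of 50 at 4-fold, 47 of 50 at 8-fold and 50 of 50 at 16-fold. It made 2 false calls. At that spread most 2-fold and 4-fold differences were missed, so a gene not called may still differ. Alternatives covered size factors, filters, DESeq2 1.42.0, limma 3.58.1, thinning, depth and plate column as covariates, a continuous share, left-out libraries and the replicate number as a block. Replicate numbers occur in both groups, but same-numbered embryos did not deviate together, so no block was used in the comparison.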

Additional observations from a re-analysis of the deposited data

Results flagged for a closer look

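Among 202 groups of 8 values examined, 22 held 1 embryo that stood farther from its set than Dixon's 95% limit for 8 samples allows; chance gives about 1 in 20. By share of ribosomal protein counts, K49A replicate 8 stood apart in the high-share set at 5.09% (median of the others 1.46%). The share chose the sets, so that chance rate does not hold for it, and its value is given as a description. By percent of counts from the mitochondrial genome, WT replicate 21 stood apart at 14.2%, with a median of 5.83% in the others.

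Among levels of named genes, given as log2(CPM + 1), K49A replicate 8 stood apart in the high-share set for 7 genes. It was high for Zmat5 at 8.54, Rab10os at 9.76, Cystm1 at 8.89, Cox4i1 at 8.93, Psmb1 at 9.56 and H2afj at 8.02, and low for Bmp15 at 7.02. This embryo has both the highest share and the lowest total of the 24 deep libraries. In the same set WT replicate 22 was low for H2-Q7 at 4.11, WT replicate 24 low for Psmb7 at 4.48 and K49A replicate 23 high for Pdgfra at 1.79, with the other 7 at 0.

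In the low-share set K49A replicate 4, which has the lowest share, stood apart for 6 genes, all low. These were Rpsa at 1.82, Cox4i1 at 2.79, Atp5g1 at 3.97, Dynll1 at 5.10, Tmsb10 at 3.28 and Amhr2 at 0. K49A replicate 16 was high for Fthl17c at 3.34, WT replicate 23 low for Fam110c at 2.41, K49A replicate 10 low for Espl1 at 3.93 and WT replicate 20 low for Gpx1 at 6.52.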

How the results depend on the processing

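The counts of higher and lower genes (973 and 815) stayed within 1.5-fold under edgeR with RLE size factors, no low-count filter, ribosomal protein genes kept, no genotype covariate, total count as covariate, thinned counts, limma with quality weights and without the 3 shallowest libraries. Leaving out 1 embryo at a time gave 654 to 1095 higher and 553 to 874 lower genes. The counts were 293 and 273 with plate column as a factor, 2158 and 1694 with the share as a continuous term over 24 libraries, and 1870 and 1468 with DESeq2. No gene called in the comparison was called with the opposite sign in any alternative run. For embryos with a replicate number found among both WT and K49A, the continuous share gave 532 and 423 calls without a block and 0 and 0 with the replicate block (1566 genes at an unadjusted p under 0.05). Correlations of same-numbered embryos were -0.21 to 0.10 over 6 numbers and none was the best match. Same-numbered embryos also lay in the same plate column, so the replicate block takes in plate column too, and the part of each was not tested. The median log2 difference of all genes, 0.13 here, was 0.19 under RLE, -0.07 under limma and -0.21 without a filter.

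The difference in total counts turned to 410060 without the 3 shallowest libraries, and that in mitochondrial percent to -0.00198 with all counts as denominator and to values from -0.86 to 0.907 with 1 embryo left out. The difference in detected genes passed the threshold unthinned (-1613, exact permutation, adjusted p = 0.0359), and leaving out 1 embryo gave -1310 to -871. It passed the threshold in 3 of these 16 runs. These were without WT replicate 20, K49A replicate 4 or K49A replicate 5 (exact permutation, adjusted p = 0.0196, 0.0148 and 0.0487). The weighted length missed the threshold with the longest transcript (-171 nt, exact permutation, adjusted p = 0.247) and without the 3 shallowest libraries (-34.3 nt). The relation of share to depth missed it within WT (-0.32) and without the 2 libraries farthest from the median total (-0.27), and was 0.16 without the 3 shallowest. The relation of difference to length went from -0.176 to -0.0663 without them. The interaction with genotype gave 19 calls with no low-count filter. Among single genes, none of them called, Sdhd turned to -0.63 and, with the replicate block, -0.35, Cd79a to -0.76 with the replicate block, Sdhb to -0.10 with limma and -0.18 without the 3 shallowest libraries, and mt-Nd3 to -0.0238 without these. For reversed and lost results the cause was not tested. Depth limits most the genes at few CPM, since the shallowest deep library held 1544253 counts.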

Other observations

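The 5 libraries with 105627 to 1064553 counts that were not deep, K49A replicates 3, 14 and 22 and WT replicates 5 and 10, also held many counts in short transcripts. The percent of other counts in transcripts under 1000 nt was 55.9% to 57.8% in the 3 K49A libraries, 46.8% in WT replicate 5 and 41.6% in WT replicate 10, against 51.0% to 56.1% in the 3 shallowest deep libraries and 32.6% to 39.0% in the 21 other deep libraries. Ribosomal protein shares ran from 0.821% in WT replicate 10 to 13.1% in K49A replicate 14.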
